A study of Homo sapiens with 8 samples.

Results

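The effect of bortezomib was examined in iron-loaded MM.1S cells, an established human multiple myeloma line, by comparing 2 samples that received bortezomib plus FeAc with 2 samples that received FeAc alone. FeAc is the iron compound that the study used to load the cells with iron, and bortezomib is a proteasome inhibitor used to treat myeloma. All samples were collected after 12 h, and the 4 samples were chosen by these treatment labels from 8 in all. The remaining 4, which received vehicle or bortezomib without added iron, serve here only as a reference. The supplementary methods name 2 biological replicates but do not say that they came from separate cultures, so that p-values measure only the spread between these samples. All groups are 1 cell line with no other genetic change named.

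RNA levels were read as TPM, in which reads are divided by the length of the gene and the sample is then brought to a fixed sum. Of 60671 genes listed, 33170 were at 0 in the 4 samples, and the 14291 that averaged 1 TPM or more in FeAc or in bortezomib plus FeAc were tested on log2(TPM + 1). This scale understates fold changes of genes near 0. The number of genes with at least 1 TPM ranged from 13120 to 13770. TPM hold no read counts, so that the depth behind each value is unknown. FeAc samples were deposited in a table with vehicle, and bortezomib plus FeAc samples in another with bortezomib, so that bortezomib and table cannot be told apart. In bulk RNA, fewer cells of a kind and less RNA per cell cannot be told apart either.

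The 2 bortezomib plus FeAc samples differed from each other. Among the 9645 genes that averaged 5 TPM or more, 464 differed over 2-fold between them, against 172 between the FeAc samples, 110 between the bortezomib samples and 164 between the vehicle samples. Mitochondrially encoded mRNA took 2.73% of the TPM in bortezomib plus FeAc replicate 1 and 9.67% in replicate 2, against 13.8% and 11% in the FeAc samples. The values of both samples are therefore given for each gene below. Markers of the plasma cell lineage were present in all 4 samples. JCHAIN, the joining chain of secreted immunoglobulin, was at 4572 and 5103 TPM with FeAc and at 2323 and 3320.2 TPM with bortezomib plus FeAc. Of 24 markers of other blood and stromal cells, 4 reached a mean of 1 TPM in either group, and the list summed to between 10.2 and 20.3 TPM in the 4 samples. HBB, CD3E, PECAM1 and COL1A1 were those 4, and none passed the test described below. COL1A1, a fibroblast collagen, was at 0.77 and 0.69 TPM with FeAc and at 4.66 and 3.02 TPM with bortezomib plus FeAc. HBB, a globin of red cells, was at 10.6 and 11.2 TPM and at 3.20 and 4.93 TPM. The markers CD3D, MPO, ELANE, NKG7, FCGR3A, LUM and PF4 were among those listed at 0 in all 8 samples.

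The proteasome degrades proteins that carry ubiquitin chains, and plasma cells, which fold and secrete large amounts of immunoglobulin, depend on it heavily. When it is blocked, damaged proteins accumulate and several transcription programs are known to respond. HSF1 raises cytosolic chaperones, NRF1 raises new proteasome subunits, NRF2 raises antioxidant enzymes and heme oxygenase, and ATF4 raises amino acid transport and stress regulators. Iron links to these programs through HMOX1, which releases iron from heme, and through ferritin, which stores it.

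In iron-loaded cells, the genes that rose with bortezomib included the chaperones HSPA1A and HSP90AA1, the autophagy receptor SQSTM1, the proteasome subunit PSMC4 and the NRF2 target SRXN1, and those that fell included HES6 and MYB. By limma with Benjamini-Hochberg adjustment, 89 genes rose and 18 fell past the threshold, a fold over 1.5 with adjusted p below 0.05, which is 0.623% and 0.126% of the genes tested. With the same fold and a p below 0.05 before adjustment, 1067 genes were higher and 2261 lower. By a rule without a test, at least a 2-fold gap between the lowest sample of the higher group and the highest sample of the lower group, 287 genes were higher (2.01%) and 212 were lower (1.48%). All 107 called genes met that rule as well. Both bortezomib plus FeAc samples lay above both FeAc samples by any amount for 2827 genes (19.8%) and below them for 5763 genes (40.3%). Leaving out any 1 of the 4 samples, FeAc replicate 1 or 2 or bortezomib plus FeAc replicate 1 or 2, left 0 genes called by limma, with 630 to 1418 genes higher and 768 to 3326 lower at an unadjusted p. An exact permutation test of 2 samples against 2 cannot give a p below 0.333.

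The median log2 fold change of all genes tested was -0.18, and scaling the samples by the median of ratios moved it to 0.01. With that scaling, the split by the 2-fold rule was 378 higher and 139 lower in place of 287 and 212, and genes without overlap were 29.9% higher and 29.6% lower. List medians below are to be read against -0.18, and counts of list members without overlap against 19.8% of all genes tested for higher and 40.3% for lower. Counts of called members are to be read against 0.623% for higher and 0.126% for lower. Of the lists described below, those whose median turned in sign with this scaling are named.

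HSP70 chaperones bind exposed hydrophobic stretches of unfolded proteins, and their list held the largest rises. Of 16 members, 13 were tested and 5 rose, and the median log2 fold change was 1.39. Without overlap, 11 lay higher and none lower, against 19.8% and 40.3% of all genes tested. HSPA1A, the stress-inducible HSP70 (GRCh38 chr6:31815464-31817946), was at 3.34 and 2.20 TPM with FeAc and at 5993 and 3053 TPM with bortezomib plus FeAc. Both treated samples lay far above both FeAc samples, and the log2 fold change was 10.16 ± 0.35 (SE, n = 2 per group; limma, adjusted p = 0.00299). HSPA1B, its near-identical neighbour on the same chromosome, was at 43.9 and 48.0 TPM with FeAc and at 12243 and 4484 TPM with bortezomib plus FeAc, a log2 fold change of 7.30 ± 0.47 (SE; limma, adjusted p = 0.0165). Reads of HSPA1A and HSPA1B can be assigned to either copy, so that the split between them is uncertain. HSPA8, the constitutive HSP70, was already abundant at 1438 and 1511 TPM and rose to 19434 and 10536 TPM. HSPH1 and HSPA4, nucleotide exchange factors of the HSP110 branch, rose from 84.1 and 81.4 to 954 and 463 TPM and from 73.8 and 71.5 to 208 and 188 TPM. HSPA5, the HSP70 of the endoplasmic reticulum, was at 281 and 271 TPM with FeAc and at 782 and 669.8 TPM with bortezomib plus FeAc, and its adjusted p by limma was 0.0508. Summed over the list, HSP70 transcripts went from 2383 and 2422 TPM to 40384 and 20059.5 TPM.

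HSPA6, a strictly inducible HSP70, had the largest gap between the 2 bortezomib plus FeAc samples among the tested members of the HSP70 list. It was listed at 0 and 0.02 TPM with FeAc and reached 150.3 TPM in bortezomib plus FeAc replicate 1 but 2.73 TPM in replicate 2, and it did not pass the test (limma, adjusted p = 0.15). In cells that received bortezomib without iron it was at 81.0 and 32.5 TPM. FCGR2C, an Fc receptor gene annotated as a polymorphic pseudogene (chr1:161581339-161605662), rose from 0.62 and 0.89 TPM to 2247 and 279 TPM. It lies next to the HSP70 pseudogene HSPA7 (chr1:161606291-161608217), which was at 10.6 and 1.22 TPM with bortezomib plus FeAc, and reads of neighbouring or similar genes may be shared between them, so that the value of FCGR2C is uncertain.

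Co-chaperones of the DNAJ class deliver clients to HSP70, and few of them passed the test. Of 34 members, all tested, 3 rose and the median log2 fold change was 0.23. DNAJB1, the main inducible DNAJ protein of the cytosol, rose from 61.8 and 61.5 TPM to 3506 and 1021 TPM, a log2 fold change of 4.92 ± 0.56 (SE; limma, adjusted p = 0.0425). DNAJA4 rose from 1.25 and 0.95 TPM to 28.3 and 12.6 TPM, and DNAJB2, a neuronal-type co-chaperone that binds ubiquitin, rose from 29.9 and 28.4 TPM to 144 and 100.5 TPM. BAG3, which links HSP70 to autophagy, rose from 13.2 and 9.10 TPM to 460.0 and 164 TPM, a log2 fold change of 4.53 ± 0.49 (SE; limma, adjusted p = 0.0393). BAG3 was the only member of the list of small heat shock proteins and BAG factors to pass, of 8 tested among 15, and the median of that list, -0.16, turned to 0.02 with scaling by the median of ratios. HSPB1, a small heat shock protein that holds unfolded clients, was at 128 and 113 TPM with FeAc and at 5744 and 1297 TPM with bortezomib plus FeAc. Both values lay over 10-fold above FeAc, yet they differed from each other enough that the adjusted p by limma was 0.052.

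HSP90 chaperones mature kinases and receptors, and 2 of the 20 members of their list rose, with a median log2 fold change of 0.61. HSP90AA1, the inducible cytosolic form, rose from 355 and 376 TPM to 8828 and 3460.0 TPM, a log2 fold change of 3.92 ± 0.47 (SE; limma, adjusted p = 0.0425). CHORDC1, an HSP90 co-chaperone, rose from 45.4 and 35.5 TPM to 158 and 124 TPM. HSP90AB1, the constitutive form, was at 1345 and 1329 TPM with FeAc and at 6962 and 4923 TPM with bortezomib plus FeAc (adjusted p = 0.0536 by limma). FKBP5, a co-chaperone of steroid receptors, lay the other way, at 32.9 and 30.3 TPM with FeAc and 6.46 and 14.8 TPM with bortezomib plus FeAc, and did not pass the test. All 10 chaperonin genes lay higher without overlap, against 19.8% of all genes tested, with a median of 0.54 and none called. HSPD1 and HSPE1, the mitochondrial HSP60 and its partner, were at 717 and 776 TPM and at 873 and 1160.0 TPM with FeAc, against 4404 and 2445 TPM and 6168 and 3229 TPM with bortezomib plus FeAc.

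**Figure D1:**
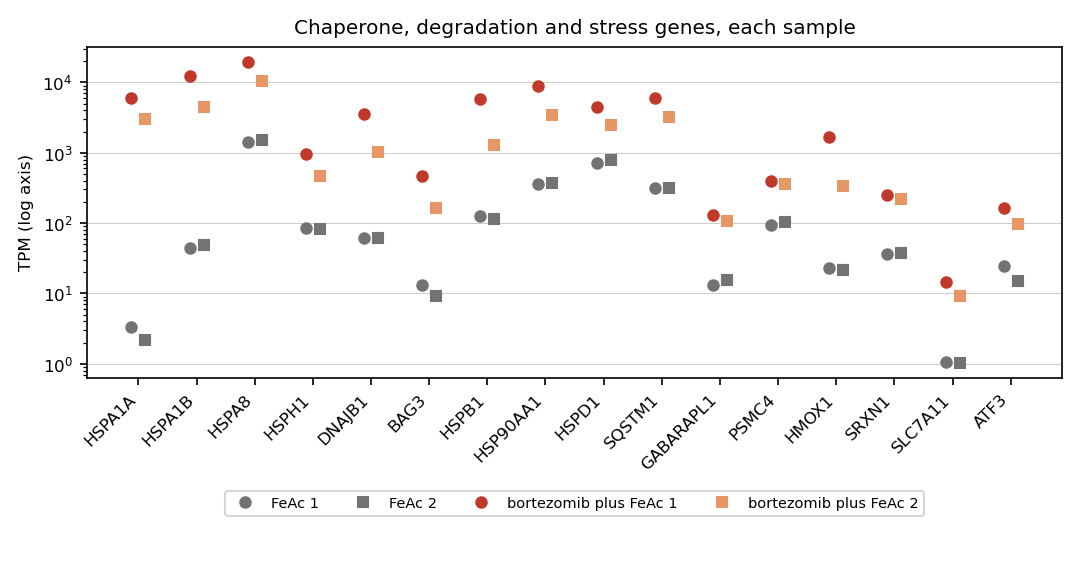
TPM of 16 chaperone, degradation and stress genes in each of the 4 samples, on a log axis, with circles for replicate 1, squares for replicate 2, grey for FeAc and red or orange for bortezomib plus FeAc. Both bortezomib plus FeAc samples lie above both FeAc samples for each gene shown, and replicate 1 lies above replicate 2, by most for HMOX1 at 1663 against 339 TPM.

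Heat shock factors bind inverted repeats of GAA, and the promoters of the chaperones that moved most were searched for the letters GAANNTTC or TTCNNGAA on either strand. RefSeq promoters on GRCh38.p14 were read from 250 bases before the start of each gene. Of 22 chaperone-list genes that were higher by 2-fold in both samples, 20 had a promoter sequence, and 14 of these (70.0%) held the letters. FKBP4 and ST13 had no promoter entry. The letters were found in 5 of 54 other tested genes of the same lists (9.26%), in 20.9% of all genes higher by 2-fold in both samples that had a promoter, in 11.9% of the genes tested and in 14% of all 27305 genes with a promoter. Proteasome lists held them in 2 of 27 genes (7.41%). The shares describe letters in these windows and not bound sites. The stretches around the matches are shown, in capitals, for the stress-inducible HSP70 genes and for partners from the other chaperone classes, on the coding strand of each gene. They are HSPA1A at chr6:31815421-31815460 on the plus strand, HSPA1B at chr6:31827617-31827656 on the plus strand, HSPA6 at chr1:161524344-161524494 on the plus strand, DNAJB1 at chr19:14518421-14518490 on the minus strand, HSPB1 at chr7:76302475-76302514 on the plus strand and HSP90AB1 at chr6:44247762-44247859 on the plus strand:
HSPA1A: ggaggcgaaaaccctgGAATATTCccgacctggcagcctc
HSPA1B: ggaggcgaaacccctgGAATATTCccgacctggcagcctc
HSPA6: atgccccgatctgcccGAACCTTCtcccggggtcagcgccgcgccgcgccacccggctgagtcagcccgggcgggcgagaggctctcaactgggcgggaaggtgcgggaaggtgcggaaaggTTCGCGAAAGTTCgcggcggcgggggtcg
DNAJB1: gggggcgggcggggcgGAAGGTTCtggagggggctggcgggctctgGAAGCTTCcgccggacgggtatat
HSPB1: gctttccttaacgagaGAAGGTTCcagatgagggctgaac
HSP90AB1: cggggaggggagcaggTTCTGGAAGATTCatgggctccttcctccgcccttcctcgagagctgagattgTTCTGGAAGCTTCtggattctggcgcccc

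The stretches of HSPA1A and HSPA1B, 40 bases each, differed at 1 base. Matches began 106 bases before the start of HSPA1A, 105 before HSPA1B, 182 before HSPB1 and 77 and 47 before DNAJB1. These distances are counted from RefSeq starts, which can differ from the GENCODE gene positions given above, as for HSPA1A. HSPA6 held 3 matches and HSP90AB1 held 4, some of which overlapped because GAA repeats continued on both sides. The letters were also found for HSPA8, HSP90AA1, HSPD1, DNAJA1 and CHORDC1. They were not found for HSPH1, HSPA4, HSPA5, HSPE1, BAG3 or DNAJB2. All of these genes were higher in both samples.

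Subunits of the proteasome, the enzyme that bortezomib blocks, lay higher as a group and by small amounts. All 14 genes of the 20S core and all 18 genes of the 19S cap were tested, all lay higher without overlap, against 19.8% of all genes tested, and the median log2 fold changes were 0.92 and 1.17. Of the 19S genes, 3 rose and 7 were higher by 2-fold in both samples, against 0.623% and 2.01% of all genes tested. PSMC4, an ATPase of the cap that unfolds substrates, rose from 93.7 and 102 TPM to 400.3 and 353 TPM, a log2 fold change of 1.93 ± 0.18 (SE; limma, adjusted p = 0.037). PSMD6 and PSMD12, non-ATPase subunits of the cap, rose from 134 and 131 TPM to 371 and 322 TPM and from 53 and 52 TPM to 161 and 127 TPM. None of the 20S genes passed the test. PSMB5, which encodes the catalytic subunit that bortezomib binds, was at 54.8 and 68.9 TPM with FeAc and at 148 and 125 TPM with bortezomib plus FeAc (adjusted p = 0.0639 by limma). The 2 bortezomib plus FeAc samples lay close together on the 19S genes, with medians of 1.14 and 1.17, and farther apart on the 20S genes, with 1.02 and 0.84.

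The 7 genes of the immunoproteasome, a variant of the core that interferon induces, and of proteasome activators had a median of -0.50 and none called. Without overlap, 4 lay lower and 1 higher, against 40.3% and 19.8% of all genes tested. PSMB8 was at 62.5 and 73.4 TPM with FeAc and 33.2 and 48.5 TPM with bortezomib plus FeAc, and PSMB9 was at 49.3 and 77.6 TPM and 29.7 and 41.3 TPM. The activator PSME4 was the 1 higher, at 30.8 and 32.2 TPM and 49.1 and 60.2 TPM.

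Ubiquitin and the factors that carry ubiquitinated proteins to the proteasome were tested for 22 of 23 genes. Of these, 1 rose and 6 were higher by 2-fold in both samples, against 0.623% and 2.01% of all genes tested. Without overlap, 13 lay higher and 4 lower, against 19.8% and 40.3%. ZFAND5, a shuttle that activates the proteasome, rose from 98.2 and 84.9 TPM to 309.8 and 260.3 TPM, a log2 fold change of 1.63 ± 0.19 (SE; limma, adjusted p = 0.0425). A larger difference did not pass the test where the treated samples lay farther apart. ZFAND2A, a related shuttle that is induced by arsenite, was at 22.0 and 23.8 TPM with FeAc and at 1159.9 and 239 TPM with bortezomib plus FeAc. Of the autophagy list, 36 of 37 genes were tested and 4 rose. SQSTM1, the p62 receptor that collects ubiquitinated cargo, rose from 312 and 312 TPM to 5968 and 3222 TPM, a log2 fold change of 3.81 ± 0.35 (SE; limma, adjusted p = 0.037). GABARAPL1, a membrane anchor of the autophagosome, rose from 13 and 15.5 TPM to 129 and 108 TPM, a log2 fold change of 2.97 ± 0.19 (SE; limma, adjusted p = 0.0165), and its treated samples lay close together. CALCOCO2, another cargo receptor, and CTSD, a lysosomal protease, rose from 44.4 and 46.7 TPM to 126 and 113 TPM and from 191 and 170.0 TPM to 455 and 511 TPM. No other member of the list passed the test, 17 of the 36 lay higher and 7 lower without overlap, against 19.8% and 40.3% of all genes tested, and the median was 0.18.

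NRF2 controls enzymes that renew glutathione and thioredoxin, and 6 of the 27 tested members of its target list rose, of 33 listed, with a median log2 fold change of 0.56. SRXN1, which repairs oxidized peroxiredoxins, rose from 36.1 and 37.0 TPM to 251 and 217 TPM, a log2 fold change of 2.64 ± 0.17 (SE; limma, adjusted p = 0.0165). OSGIN1 rose from 0.98 and 0.61 TPM to 20.6 and 15.8 TPM. SLC7A11, the cystine importer whose cystine feeds glutathione synthesis and whose block triggers ferroptosis, rose from 1.07 and 1.04 TPM to 14.4 and 9.26 TPM, a log2 fold change of 2.61 ± 0.28 (SE; limma, adjusted p = 0.0393). GCLM, the modifier subunit of the enzyme that starts glutathione synthesis, rose from 4.18 and 3.73 TPM to 17.2 and 14.6 TPM, and GSR, which reduces oxidized glutathione, rose from 49.3 and 52.2 TPM to 123 and 150.2 TPM. NQO2, a quinone reductase, rose from 28.5 and 31.6 TPM to 94.9 and 80.0 TPM. MGST1, a microsomal glutathione transferase, lay the other way by 2-fold in both samples, at 20.7 and 16.5 TPM with FeAc and 6.19 and 5.93 TPM with bortezomib plus FeAc, and did not pass the test (limma, adjusted p = 0.0503).

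HMOX1, heme oxygenase, which splits heme into biliverdin, carbon monoxide and iron (chr22:35380361-35394214), was at 23.0 and 21.8 TPM with FeAc and at 1663 and 339 TPM with bortezomib plus FeAc. Both treated samples lay over 10-fold above both FeAc samples, and the first lay well above the second. The log2 fold change was 5.01 ± 0.70 (SE; limma, adjusted p = 0.0503), so that HMOX1 narrowly missed the threshold, and it passed under 6 of 12 alternative settings, with adjusted p between 0.00129 and 0.476. BLVRB, which reduces biliverdin and flavins, rose from 35.1 and 37.1 TPM to 115 and 96.4 TPM, and MAFG, a small MAF partner of NRF2, rose from 23.5 and 23.5 TPM to 56.2 and 61.5 TPM. These were the 2 called of 11 tested genes of heme breakdown and NRF2 control, with a median of 0.61.

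Iron genes moved unevenly. Of 15 tested among 24 genes of iron uptake, storage and export, none passed the test, and the median was -0.32. Without overlap, 9 lay lower and 4 higher, against 40.3% and 19.8% of all genes tested. Scaling by the median of ratios made this 6 lower and 4 higher, against 29.6% and 29.9%, with a median of -0.13. FTL, the ferritin light chain, was at 2691 and 2473 TPM with FeAc and at 20357 and 11252 TPM with bortezomib plus FeAc, a log2 fold change of 2.55 ± 0.44 (SE; limma, adjusted p = 0.0639). FTH1, the heavy chain that oxidizes iron, was at 261 and 247 TPM and at 433 and 308 TPM. TFRC, the transferrin receptor, lay lower without overlap, at 57.4 and 52.6 TPM with FeAc and 27.8 and 44.5 TPM with bortezomib plus FeAc. STEAP3, which reduces endosomal iron, was at 18.4 and 14.1 TPM and at 2.82 and 7.38 TPM. CYB5R1, an oxidoreductase that promotes lipid peroxidation and is on the list of ferroptosis regulators, rose from 75.0 and 74.7 TPM to 246 and 270.2 TPM, a log2 fold change of 1.77 ± 0.17 (SE; limma, adjusted p = 0.037). With SLC7A11 it was 1 of 2 called among 21 tested genes of that list, whose median was 0.06, and -0.03 without mitochondrially encoded genes.

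For NRF2 the letters TGACNNNGC or GCNNNGTCA, of the antioxidant response element, were searched in the same promoter windows on either strand. They were found for 8 of 29 tested genes of the NRF2 and heme lists that had a promoter (27.6%) and for 2 of the 8 that were higher by 2-fold in both samples (25%), against 25.8% of all genes higher by 2-fold in both samples, 16% of the genes tested and 13.2% of all promoters. HMOX1, SLC7A11 and GSR had no promoter entry.

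ATF4 and the integrated stress response were represented by 18 tested genes of 19, of which 1 rose, with a median log2 fold change of 0.50. By 2-fold in both samples 6 were higher, against 2.01% of all genes tested. Without overlap, 12 lay higher and 1 lower, against 19.8% and 40.3%. ATF3, a stress transcription factor, rose from 24.6 and 14.9 TPM to 163 and 97.4 TPM, a log2 fold change of 2.65 ± 0.34 (SE; limma, adjusted p = 0.0482). DDIT3, which encodes the death-promoting factor CHOP, was at 9.46 and 9.98 TPM with FeAc and at 86.6 and 31.5 TPM with bortezomib plus FeAc. CHAC1, which degrades glutathione, was at 1.90 and 1.73 TPM and at 15.2 and 9.08 TPM, and PPP1R15A, which restores translation, was at 50.9 and 45.5 TPM and at 356 and 167 TPM. DDIT3, CHAC1 and PPP1R15A did not pass the test. ATF4 itself was at 469 and 434 TPM with FeAc and 890.0 and 629 TPM with bortezomib plus FeAc.

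Genes of amino acid supply lay higher for 25 and lower for 3 of 30 members without overlap, against 19.8% and 40.3% of all genes tested. Their median was 0.67, and SLC7A11 was the 1 called. SLC3A2, the shared heavy chain of its transporter, was at 122 and 135 TPM with FeAc and at 515 and 331 TPM with bortezomib plus FeAc, and PSAT1, of serine synthesis, was at 25.2 and 27.2 TPM and at 120.4 and 64.7 TPM. Of 39 genes of folding and disposal in the endoplasmic reticulum, none was called, and 10 lay higher and 10 lower without overlap, against 19.8% and 40.3% of all genes tested. With scaling by the median of ratios these were 18 and 9, against 29.9% and 29.6%, and the median of -0.05 turned to 0.15. XBP1, the transcription factor of that response, was at 838 and 851 TPM with FeAc and at 445 and 569.7 TPM with bortezomib plus FeAc. The BCL2 family of death regulators also had no called member among 12 tested, with 5 higher and 5 lower without overlap, against 19.8% and 40.3%. Its median of -0.00 turned to 0.20 with scaling by the median of ratios, with 6 higher and 2 lower, against 29.9% and 29.6%.

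None of the 18 genes that fell belonged to any of the 43 lists, whereas 30 of the 89 that rose did. HES6, a HES family transcription regulator, fell from 79.6 and 107 TPM to 5.37 and 9.80 TPM, a log2 fold change of -3.49 ± 0.31 (SE; limma, adjusted p = 0.037). MYB, a transcription factor of blood progenitors and leukemias, fell from 37.1 and 31.5 TPM to 3.30 and 5.72 TPM, a log2 fold change of -2.71 ± 0.27 (SE; limma, adjusted p = 0.0393). PLAC8 fell from 12.4 and 8.98 TPM to 0.87 and 1.01 TPM, and CCR2, a chemokine receptor, fell from 5.54 and 6.36 TPM to 0.16 and 0.64 TPM. TMPRSS15, a serine protease, fell from 27.8 and 25.8 TPM to 4.33 and 7.26 TPM, and CTHRC1, a secreted collagen-repeat protein, fell from 16.7 and 16.4 TPM to 3.88 and 3.67 TPM. COQ2, an enzyme of coenzyme Q synthesis, fell from 29.6 and 27.8 TPM to 6.89 and 9.73 TPM. PTPN6, the phosphatase SHP-1 that damps receptor signals in blood cells, fell from 222 and 217 TPM to 62.9 and 82.0 TPM, a log2 fold change of -1.60 ± 0.20 (SE; limma, adjusted p = 0.0451). For each of these genes both treated samples lay below both FeAc samples, and replicate 1 was the lower of the treated pair for 14 of the 18 genes. Among all 14291 genes tested, replicate 1 was the higher for only 4767, so that its lower values were not particular to the genes that fell.

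**Figure D2:**
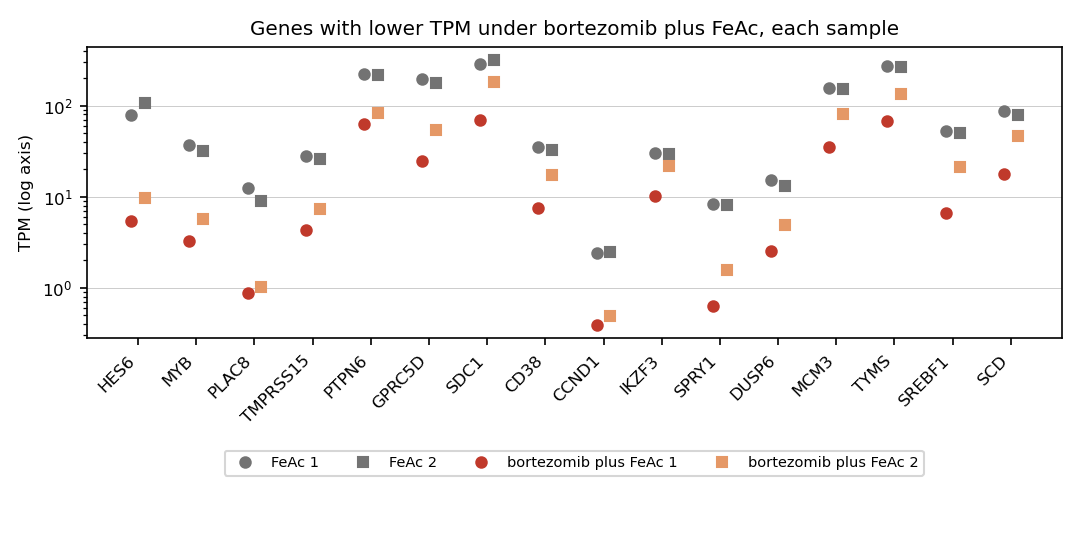
TPM of 16 genes with lower levels under bortezomib plus FeAc in each of the 4 samples, on a log axis, with circles for replicate 1, squares for replicate 2, grey for FeAc and red or orange for bortezomib plus FeAc. HES6, MYB, PLAC8, TMPRSS15 and PTPN6 passed the limma test and the other 11 did not, and replicate 1 lies below replicate 2 of bortezomib plus FeAc for all 16.

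Genes of plasma cell identity and myeloma drivers were tested for 17 of 21 members. None passed the test, 11 lay lower and 0 higher without overlap, where 40.3% and 19.8% of all genes tested did so, and the median was -0.64. Scaling by the median of ratios made this 10 lower and 1 higher, against 29.6% and 29.9%, with a median of -0.44. IKZF1, a transcription factor whose protein is degraded under lenalidomide, was at 34.3 and 32.6 TPM with FeAc and at 11.8 and 18.7 TPM with bortezomib plus FeAc. MEF2C was at 173 and 179 TPM and at 78.3 and 103 TPM. Of 20 tested surface antigens of 22, 12 lay lower and 3 higher without overlap, against 40.3% and 19.8% of all genes tested. With scaling by the median of ratios 9 lay lower and 3 higher, against 29.6% and 29.9%. In both samples 1 was lower by 2-fold, against 1.48% of all genes tested. That 1 was GPRC5D, a target of antibody and CAR T cell therapy, at 198 and 178 TPM with FeAc and 24.9 and 53.8 TPM with bortezomib plus FeAc (limma, adjusted p = 0.0565). SDC1, the CD138 antigen, was at 284 and 314 TPM and at 69.1 and 182 TPM, and CD38 was at 35.2 and 32.7 TPM and at 7.49 and 17.3 TPM. Replicate 1 was the lower of the treated pair for both. CD40 lay the other way, at 9.28 and 9.34 TPM with FeAc and 15.8 and 12.9 TPM with bortezomib plus FeAc. SLAMF7 did so too, at 294 and 252 TPM and at 387 and 343 TPM, and neither passed the test.

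DNA replication genes lay lower without overlap for 27 of 35 members and mitosis genes for 24 of 30, against 40.3% of all genes tested, with medians of -0.74 and -0.56 and no member called. MCM4, a subunit of the replicative helicase, was at 201 and 173 TPM with FeAc and at 60.6 and 87.7 TPM with bortezomib plus FeAc, and TYMS, thymidylate synthase, was at 272 and 268 TPM and at 68.3 and 135 TPM. TOP2A, which untangles sister chromatids, was at 153 and 177 TPM and at 96.1 and 95.7 TPM. With scaling by the median of ratios these counts were 27 and 20, against 29.6% of all genes tested.

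Enzymes from squalene to cholesterol, the branch that holds lanosterol synthesis, lay lower without overlap for 9 of 13 members, with a median of -0.58, and those of fatty acid synthesis for 10 of 17 tested, with a median of -0.52, against 40.3% of all genes tested that lay lower. With scaling by the median of ratios both counts were 8, against 29.6%. No member of either list passed the test. LSS, lanosterol synthase, was at 71.7 and 67.1 TPM with FeAc and at 21.3 and 49.2 TPM with bortezomib plus FeAc. SREBF1, which encodes the transcription factor SREBP-1, was at 52.1 and 49.4 TPM and at 6.55 and 21.4 TPM. SCD, the stearoyl-CoA desaturase, was at 87.7 and 78.7 TPM and at 17.9 and 46.8 TPM. In each of these genes replicate 1 was the farther from FeAc.

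The replicates differed by gene group and not in size alone. Replicate 1 of bortezomib plus FeAc lay at least 2-fold above both FeAc samples for 637 genes and below for 1413, and replicate 2 for 459 and 291. Replicate 1 was the higher of the pair for 68 of the 89 genes that rose, against 4767 of all 14291 genes tested. Of the 43 lists, mitochondrially encoded genes differed most, with a median of -1.91 in replicate 1 and -0.31 in replicate 2 against the mean of the FeAc samples. MT-CO1, a subunit of cytochrome c oxidase, was at 18437 and 12657 TPM with FeAc and at 2699.6 and 10669.9 TPM with bortezomib plus FeAc, and no mitochondrial gene passed the test. The medians for DNA replication were -0.98 and -0.52, for plasma cell identity -0.98 and -0.41, for squalene to cholesterol -0.96 and -0.33 and for NRF2 targets 1.05 and 0.63. Cytosolic ribosomal protein genes were higher in replicate 1 for 74 of 75 members, with medians of 0.52 and 0.02. The medians of the proteasome 19S genes lay close, at 1.14 and 1.17, as did those of the HSP90 list, at 0.62 and 0.60, although HSP90AA1 was far higher in replicate 1 and FKBP5 in replicate 2. Other lists lay as close, among them the ubiquitin genes at 0.59 and 0.60 and the chaperonins at 0.56 and 0.54. What part the mitochondrial share of the TPM had in the other differences was not tested.

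**Figure D3:**
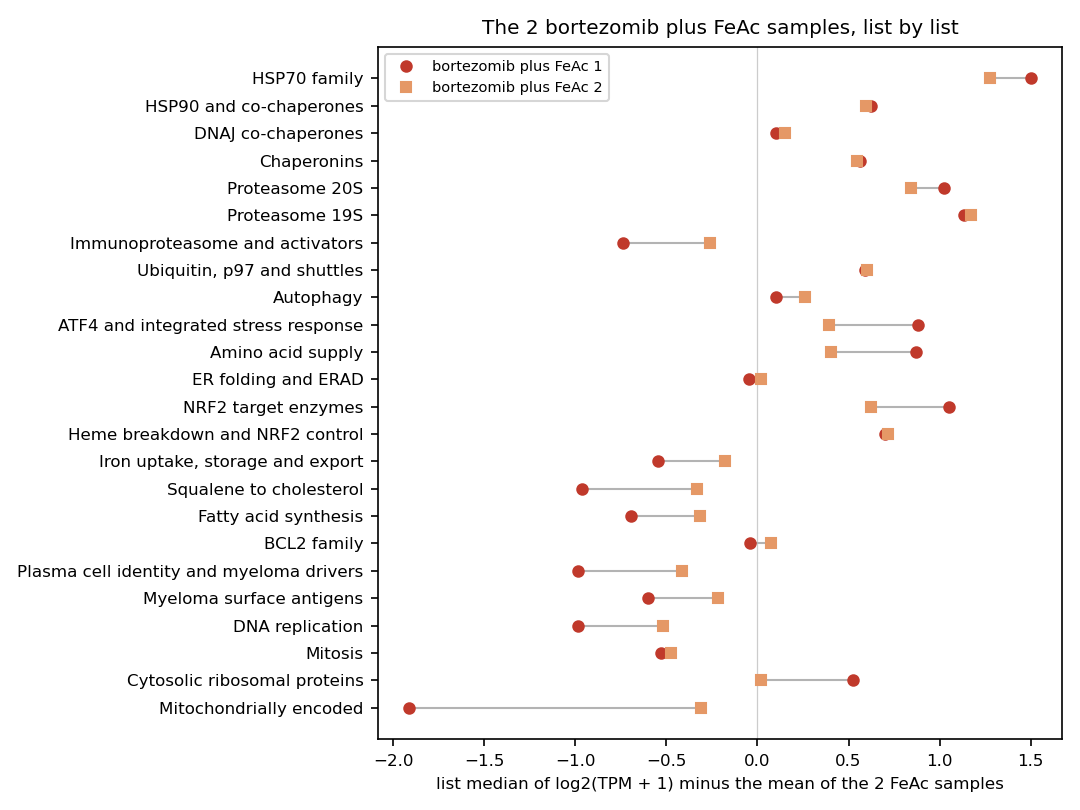
Median of log2(TPM + 1) minus the mean of the 2 FeAc samples for the tested members of 24 gene lists, with a circle for bortezomib plus FeAc replicate 1 and a square for replicate 2. The medians nearly coincide for several lists, among them the HSP90, 19S proteasome, ubiquitin and chaperonin genes. They lie farthest apart for mitochondrially encoded genes, at -1.91 and -0.31.

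The question of whether iron changed the response to bortezomib was addressed with the 4 samples without added iron, by the difference between the bortezomib responses with and without FeAc in 1 fit of all 8 samples. By limma, 1 of 14812 genes passed (0.00675%), the small nucleolar RNA SNORD22, and 320 genes passed with p below 0.05 before adjustment. No gene passed with a pseudocount of 0.1, without a filter or with the replicate number as a block, where 322, 500 and 326 passed before adjustment. Between 5 and 18 genes passed when any 1 of the 8 samples was left out, the fewest without vehicle replicate 2 and the most without vehicle replicate 1 or bortezomib plus FeAc replicate 2. HSPA1A was at 7.18 and 1.69 TPM with vehicle and at 6388 and 4569 TPM with bortezomib, and its response differed with iron by -0.00 ± 0.74 (SE) on the log2 scale. HMOX1 was at 12.4 and 12.5 TPM with vehicle and at 544 and 320 TPM with bortezomib, and its response differed by 0.05 ± 0.89. With standard errors of this size, a 2-fold difference between the responses was not detectable for either gene. For SRXN1, whose replicates lay closer, the difference was -0.29 ± 0.21, and for HES6 it was -0.63 ± 0.37.

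Without iron, at least 2-fold gaps in the same direction were found for 79 of the 89 genes that rose (88.8%), against 2.97% of the genes tested, and for 13 of the 18 that fell (72.2%), against 1.83%. Median log2 fold changes of the genes that rose were 1.91 with iron and 1.94 without, and of those that fell -1.99 and -1.86. Of the 287 genes higher by 2-fold in both samples with iron, 225 (78.4%) were so without iron, and of the 212 lower, 102 (48.1%). These 4 samples share no library with the comparison above. They do share its deposited tables, bortezomib with bortezomib plus FeAc and vehicle with FeAc. Bortezomib and table therefore cannot be told apart here either, and a difference between the tables would recur in both comparisons. SREBF1 was lower with bortezomib without iron as well, at 24.4 and 38.1 TPM with vehicle and at 12.9 and 19.7 TPM with bortezomib, and its difference between responses, -1.10 ± 0.67, did not pass the test.

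**Figure D4:**
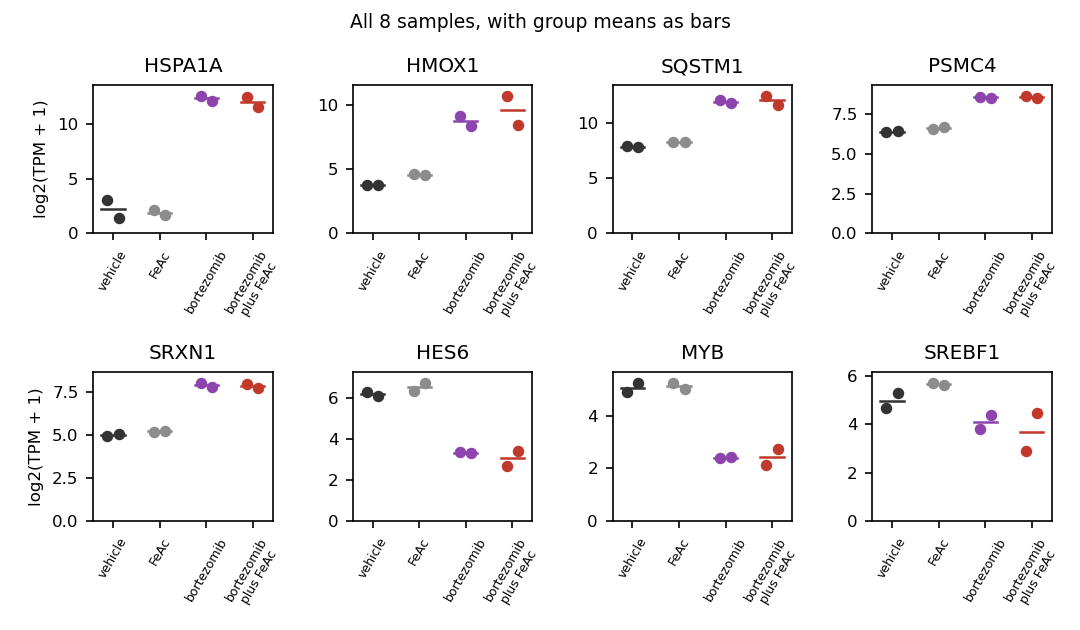
Log2(TPM + 1) of 8 genes in all 8 samples, with points for samples and bars for group means of vehicle, FeAc, bortezomib and bortezomib plus FeAc. HSPA1A, HMOX1, SQSTM1, PSMC4 and SRXN1 are high and HES6, MYB and SREBF1 are low in both bortezomib groups, and the bortezomib plus FeAc samples lie farther apart than the bortezomib samples for HMOX1 at 1663 and 339 TPM.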

How the data were processed

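RNA of the 8 samples was measured by bulk RNA sequencing. The deposited values are read as TPM made by the authors, because the columns name no unit and each sample summed to between 994968 and 996780. Per the submitters' processing notes, the build was GRCh38.p13 and the tools included edgeR, DESeq2, RSEM, StringTie and HISAT2, with versions and roles not given in the sources used here. Columns with the authors' own comparisons (fold changes, group means, calls and p-values) were not used. TPM keep no counts, so that count tests, depth and counting intervals are not given.

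Tables were joined by gene ID, and positions and gene types came from GENCODE release 29, in which 96.3% of 60671 IDs had an entry. Groups follow the sample labels. Genes that averaged 1 TPM or more in a group of the comparison were tested on log2(TPM + 1) with limma-trend (limma 3.58.1, R 4.3.3) and Benjamini-Hochberg adjustment, and called when the fold exceeded 1.5 with adjusted p below 0.05. In simulated data built from these samples, with 14291 genes, the test recovered 0 of 67 genes set to a 1.5-fold change, 8 of 67 at 2-fold and 56 of 66 at 4-fold, and called 12 of 14091 genes left alone. Genes with smaller changes will therefore mostly be missed. In this simulation the 12 false calls stood beside 8 and 56 calls of changed genes, a larger share than an adjusted p below 0.05 aims at.

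The gene lists and the comparison were chosen with earlier results of these data known. Named genes are HSPA1A and HMOX1, up to 15 rises and 15 falls of largest change whose groups do not overlap and average 5 TPM or more, and for each list the 4 members of smallest p and 2 that moved the other way. HSPA6, HSPA7, HSPA8, HSP90AB1, NQO2, GSR, MGST1, FTH1, ATF4, DDIT3, PSAT1, IKZF3, CCND1, MCM3, JCHAIN and PTPN6 are among the further genes named after their values were seen. Alternatives were a pseudocount of 0.1, no filter, a minimum mean of 5 TPM, a single fit over 4 groups, a block for the replicate number, removal of mitochondrially encoded genes, other fold thresholds, median-of-ratios scaling and leaving out each sample.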

Additional observations from a re-analysis of the deposited data

Results flagged for a closer look

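SNORD22, a small nucleolar RNA whose gene lies on chromosome 11, was the 1 gene whose bortezomib response differed with iron by the test of that difference. It was at 24.6 and 33.5 TPM with FeAc and was listed at 0 in both bortezomib plus FeAc samples and in all 4 samples without added iron. The difference between the responses was -4.89 ± 0.358 (SE) on the log2(TPM + 1) scale (limma, adjusted p = 0.0167), and it did not pass with a pseudocount of 0.1, without a filter on low values or with the replicate number as a block. With no counts an exact 0 has no known upper limit. Other short genes also moved far from 0 in a single sample of a group, as did RNU4-1, a spliceosomal RNA, which was at 83.7 and 0 TPM in the vehicle samples.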

How the results depend on the processing

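The counts of called genes depended on the setting. Against 89 higher and 18 lower, limma called 144 and 45 with a pseudocount of 0.1, 306 and 210 at a mean of at least 5 TPM, 750 and 1374 with all 4 groups in 1 fit, 315 and 95 with scaling by the median of ratios, 37 and 6 without mitochondrially encoded genes and 0 and 0 without a filter on low values, where 1075 and 2004 passed an unadjusted p. Leaving out 1 sample gave 0 genes higher and 0 lower for each of FeAc replicate 1, FeAc replicate 2, bortezomib plus FeAc replicate 1 and bortezomib plus FeAc replicate 2, where 685 and 768, 630 and 1046, 1087 and 1334 and 1418 and 3326 passed an unadjusted p, in that order. With the replicate number as a block the counts were 216 and 134 in the 4 samples and 682 and 1158 with all groups. The labels give same-numbered replicates only a shared number. Deviations of same-numbered samples correlated at -0.10 between FeAc and bortezomib plus FeAc, and at -0.16 to 0.21 over all pairs of groups. With 2 samples per group these values cannot settle whether the replicates were paired.

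The difference between the responses passed for 1 gene, for 0 with a pseudocount of 0.1, no filter or the replicate block, where 322, 500 and 326 passed an unadjusted p, and for 5 to 18 when a sample was left out. These were 18 and 5 without vehicle replicates 1 and 2, 9 and 10 without those of FeAc, 10 and 13 without those of bortezomib and 7 and 18 without those of bortezomib plus FeAc. Genes higher by 2-fold in both samples numbered 440 with a pseudocount of 0.1, against 287, and 418 to 637 when a sample was left out, which was chosen after seeing the data. Genes lower numbered 527 with a pseudocount of 0.1 and 139 with scaling by the median of ratios, against 212, and 291 to 1413 when a sample was left out. Higher and lower, these were 451 and 373 without FeAc replicate 1, 418 and 561 without FeAc replicate 2, 459 and 291 without bortezomib plus FeAc replicate 1 and 637 and 1413 without its replicate 2. Of the 53 genes named in the text that passed the test, all 53 missed it without a filter and in each fit with a sample left out, and 24 did so without mitochondrially encoded genes. CD40 and SLAMF7 were not included in the check of direction. None of the other genes named with values in the text changed direction under any alternative that tested them. The cause of these differences was not tested.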

Other observations

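Other genes that passed the limma test were on none of the lists described above. Among them were the tubulins TUBB2A, which rose from 5.34 and 4.21 TPM to 46.3 and 35.0 TPM, and TUBB4A, which rose from 1.90 and 1.29 TPM to 12.9 and 14.3 TPM. Among the other rises were IFI44, an interferon-inducible gene, from 1.32 and 0.96 TPM to 12.3 and 13 TPM, AIM2, a sensor of cytosolic DNA, from 15.8 and 14.3 TPM to 52.5 and 46.3 TPM and GBP3, a guanylate-binding protein, from 19.4 and 17.8 TPM to 66.6 and 52.7 TPM. TNFSF9, the ligand of the T cell receptor CD137, rose from 11 and 13.6 TPM to 70.2 and 43.7 TPM. P4HA2, a collagen prolyl hydroxylase, rose from 6.43 and 5.62 TPM to 94.4 and 54.0 TPM, a log2 fold change of 3.37 ± 0.29 (SE; limma, adjusted p = 0.037). It was the 1 called of 24 tested genes on a list of targets of the hypoxia factor HIF. The median of that list, -0.08, turned to 0.10 with scaling by the median of ratios. HSD17B6, a steroid and retinol dehydrogenase, rose from 3.78 and 10.8 TPM to 103 and 75.4 TPM, and CLU, a secreted chaperone, from 345 and 271 TPM to 1729 and 1326 TPM. GLA and ATP6V1A, a glycosidase and a proton pump subunit of the lysosome, rose from 62.4 and 61.9 TPM to 234 and 204 TPM and from 40.4 and 46.5 TPM to 107 and 113 TPM. These genes were chosen after their values were seen.

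Of 20 tested genes of HLA and antigen presentation, 14 lay lower and 2 higher without overlap, with a median log2 fold change of -0.36 and none called, against 40.3% and 19.8% of all genes tested. Scaling by the median of ratios made this 7 lower and 2 higher, against 29.6% and 29.9%. CIITA, the regulator of class II genes, was at 18.8 and 13.9 TPM with FeAc and at 2.65 and 7.45 TPM with bortezomib plus FeAc. Replication-dependent histones, of which 23 of 49 were tested, had medians of 1.31 in bortezomib plus FeAc replicate 1 and 0.18 in replicate 2, and 22 of the 23 were higher in replicate 1. The small RNAs RNU4-1, RNU2-2P and SNORA73A were listed at 0 in both FeAc samples and at 32.8 and 25.8, 8.02 and 21.1, and 7.90 and 16.5 TPM with bortezomib plus FeAc.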
